A study of Mus musculus with 8 samples.

Results

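Peaks of IRF5 CUT&Tag signal with their summit in a 3' untranslated region (3' UTR) were examined in mouse macrophages. A peak was a member when the authors' annotation put it in the 3' UTR class of a gene and in the promoter class of none, and when it lay on an assembled nuclear chromosome. By this rule 1307 of the 105945 peaks of 4 anti-IRF5 libraries were 3' UTR peaks. The cells were wild-type bone marrow-derived macrophages that had received PBS (the control) or CpG, unmethylated DNA that is sensed by Toll-like receptor 9, and each condition had 2 anti-IRF5 libraries. The question was where IRF5 lies on the genome with and without that stimulus. The series also holds 4 IgG samples, which are not analysed here and had no peak list of their own among the files used. Per the names of the deposited lists, the background for both control libraries was 1 control IgG library and that for both CpG libraries was 1 CpG IgG library. The background library and the condition therefore cannot be told apart. The cells were thawed from frozen vials before the assay. The labels give no dose or duration of CpG and no age of the mice. They do not say whether the 2 libraries of a condition came from separate mice or cultures, so each p-value measures only how these libraries vary, and that variation may be technical.

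The 3' UTR is the part of a messenger RNA after the stop codon, and it holds binding sites for microRNAs and for proteins that set how long the RNA lasts. Many inflammatory transcripts carry AU-rich elements there, which speed their decay. IRF5 is a transcription factor that binds DNA, is activated through MyD88 downstream of Toll-like receptors, and is known in macrophages for driving inflammatory cytokine genes. CUT&Tag cuts genomic DNA next to the antibody with a tethered transposase, so a 3' UTR peak is signal over the DNA that encodes the UTR and says nothing of the RNA.

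The lists held 13553 peaks in CpG replicate 1 and 25851 to 37315 in the other 3 libraries, so the former stands apart in length. Sequencing depth is unknown. Fold enrichment is the authors' ratio of the pileup at a peak's summit to the local background. Peaks are ranked by it only within a list, as a percentile of that list. The fold enrichments printed for single genes describe each library and are not comparable between libraries. The class followed the summit and not the body of a peak: the summit of every 3' UTR peak with a gene position in the files lay inside the gene, whereas the midpoint lay outside it in 6 of 333 and 10 of 449 cases for the controls and in 1 of 101 and 2 of 254 for CpG. No genome sequence of the build of the files was used here, and neither labels nor headers name that build, so positions are those of the files and no sequence is shown. Of the macrophage identity list, 32 genes were named in the files. Of these 21 had a promoter peak in each of control 1, control 2 and CpG 2 and 12 in CpG 1, where 33.1%, 38.8%, 30.5% and 14.1% of all named protein-coding genes did. None of the 4 named B cell markers had a promoter peak in any library, but other marker lists were not at 0. In the same library order as the shares, the 9 dendritic cell markers had 6, 6, 1 and 2. The 8 T and NK cell markers had 0, 2, 1 and 1, and the 11 neutrophil markers 1, 3, 1 and 0. The 5 erythroid and megakaryocyte markers had 1, 1, 2 and 1, and the 5 stromal and endothelial markers 1 in each. Among named genes, the control counts do not set the macrophage list apart from the dendritic one. The files name a gene only where it is nearest to a peak. The full lists held 34 macrophage genes, 13 dendritic cell markers and 12 B cell markers, so the naming left out a larger part of the latter 2. How the full lists compare is therefore not read from these counts.

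Fewer 3' UTR peaks were called after CpG, and they made up a smaller share of all peaks. Control 1 held 375 and control 2 held 508, against 122 in CpG 1 and 302 in CpG 2. Both CpG libraries lay below both control libraries, with CpG 1 the lowest. The control mean was 442 ± 94.0 peaks and the CpG mean 212 ± 127 peaks (SD, n = 2 each), a ratio of 0.480. The ratio was 0.505 for exon peaks and 0.592 for all peaks. As a share of the library's peaks the values were 1.28% and 1.36% in the controls and 0.900% and 1.17% after CpG. The groups did not overlap, and the difference in mean share was -0.288 points, at 1.03% ± 0.190 against 1.32% ± 0.0554 (SD, n = 2 each). The share of exon peaks was likewise lower, at 4.03% and 3.97% in the controls and 2.87% and 3.69% after CpG. Whether 3' UTR and exon peaks differ in this was not tested. Both differences in 3' UTR peaks gave p = 0.333 in a two-sided exact permutation test, which is the smallest p that 2 libraries against 2 can give. When the 13553 strongest peaks of each library were compared, the ratio of numbers was 0.833 and the difference of shares was -0.188 points.

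**Figure D1:**
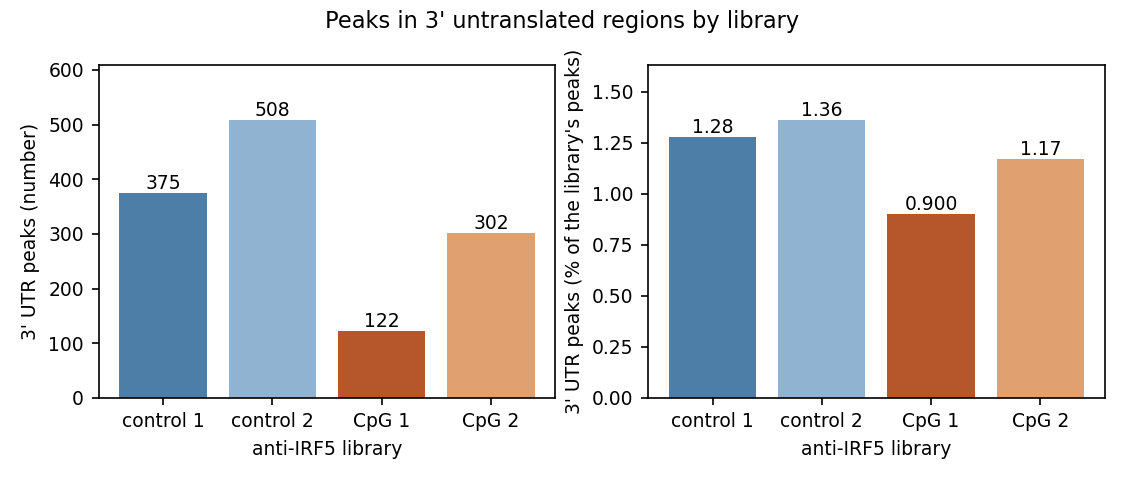
Bars give the number of 3' UTR peaks (left) and their percentage of all peaks (right) in each anti-IRF5 library, 1 bar per library. Both control bars stand above both CpG bars in each panel, and CpG 1 is lowest with 122 peaks and 0.900%.

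The summits sat near the ends of their genes in all 4 libraries. The membership rule largely sets this, since a 3' UTR lies at the end of its gene, so the distances only describe the members. The median distance from summit to the annotated 3' end of the gene was 904 bp and 906 bp in the controls and 962 bp and 1061 bp after CpG. Within 1 kb of the end lay 53.8%, 54.1%, 51.5% and 49.6% of the summits in the same order. The bin from 250 to 500 bp before the end held the most summits in every library, with 17.4% in control 1 and 15.8% in CpG 1 among others. The peaks were short, with median lengths of 264 bp and 292 bp in the controls and 204 bp and 302 bp after CpG. Peaks of at least 2 kb numbered 3, 2, 0 and 1. The gene that carried the 3' UTR was often not the one with the nearest start: it was the nearest gene for 129 of 375 and 178 of 508 control peaks and for 37 of 122 and 90 of 302 CpG peaks.

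**Figure D2:**
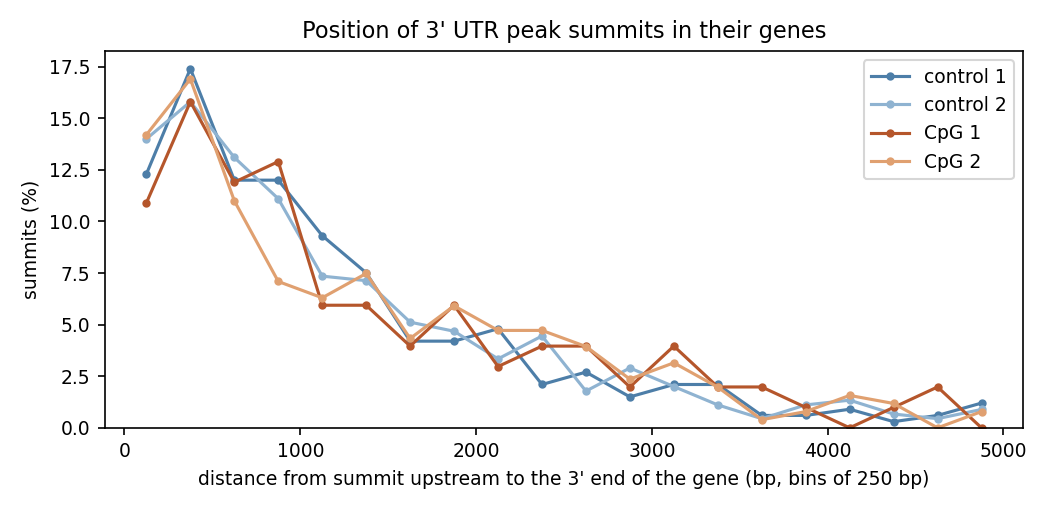
Lines give the percentage of 3' UTR peak summits (y axis) in bins of 250 bp by distance to the 3' end of the gene (x axis, bp), with 1 line per library and summits beyond 5 kb not drawn. The lines run together, are highest in the bins nearest to the gene end and fall off with distance.

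The closest class to compare with is that of exon peaks away from promoters and UTRs, taken within the same library so that list length and background library are shared. In strength the 3' UTR peaks lay near the middle of their lists. Their median percentile by fold enrichment was 50.5 and 48.8 in the controls and 49.8 and 48.6 after CpG, and 9.33%, 8.07%, 9.02% and 9.60% of them ranked above the 90th percentile. Against exon peaks the median percentile was higher in 4 of 4 libraries, by 3.21 ± 2.56 on average (SD, n = 4; two-sided exact sign-flip permutation test, p = 0.125, the smallest that 4 libraries can give). The direction depended on the class chosen, since the mean difference was -2.32 against intron peaks. In length the 3' UTR peaks were shorter than exon peaks in 4 of 4 libraries, by a mean of 12.5 bp with an SD of 7.99 bp (n = 4, p = 0.125 in the same exact test). That held in part only: the mean difference was -6.25 bp (exact p = 0.50) for peaks with −log10 q of at least 5, -36.1 bp (exact p = 0.125) with lists of equal length, and against intron peaks the exact p was 0.50.

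Genes with a 3' UTR peak often had a promoter peak in the same library as well. Of the named protein-coding genes with a 3' UTR peak, 42.0% and 47.1% had one in the controls and 15.1% and 35.0% after CpG, with CpG 1 the lowest. Among all 11336 named protein-coding genes the shares with a promoter peak were 33.1%, 38.8%, 14.1% and 30.5%. Genes with an exon peak had 31.6%, 36.8%, 10.2% and 29.3%, so the 3' UTR genes were higher in 4 of 4 libraries. The mean difference was 7.82 ± 2.98 points (SD, n = 4; two-sided exact sign-flip permutation test, p = 0.125). Against genes with an intron peak it was 3.66 points, less than that by over 1.5 times. The compactness of the neighbourhood was alike in 3' UTR and exon peaks, as the start of another gene lay within 5 kb of 17.1%, 20.9%, 17.2% and 19.2% of 3' UTR peaks and of 17.8%, 18.6%, 15.7% and 15.7% of exon peaks. For intron peaks these shares were 11.2%, 10.7%, 8.82% and 10.3%. Whether nearby starts of other genes bear on the promoter shares was not tested.

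**Figure D3:**
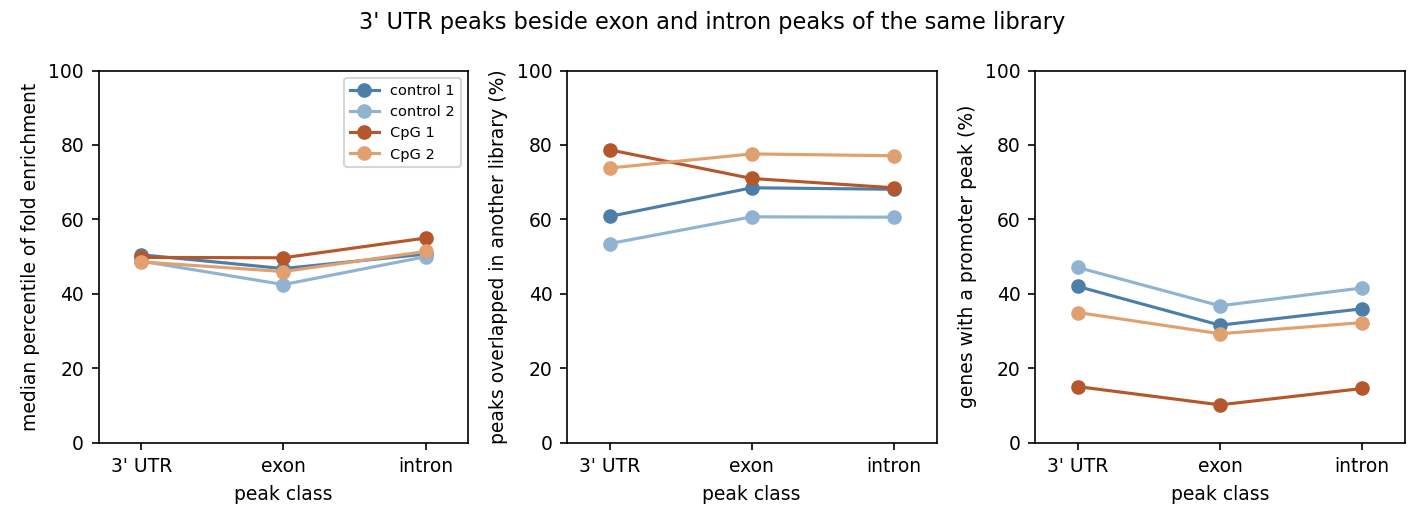
Points give, for 3' UTR, exon and intron peaks of each library, the median percentile of fold enrichment (left), the percentage of peaks overlapped in another library (middle) and the percentage of named protein-coding genes with a promoter peak (right), joined by library. The promoter share is higher for 3' UTR than for exon peaks in all 4 libraries, and CpG 1 has the lowest promoter shares.

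The 3' UTR peaks were called again in the partner library of their condition in 55.7% and 42.7% of cases for the controls and in 65.6% and 26.5% for CpG 1 and CpG 2. The 2 CpG values lay on either side of both control values, and the means of 49.2% ± 9.20 and 46.0% ± 27.6 (SD, n = 2 each) differed by less than that spread (two-sided exact permutation test, p = 1.00). With lists of equal length both CpG values lay below both control values, at a difference of -13.7 points (p = 0.333 in the same exact test). At full list length, the partner library overlapped 67.3% and 49.7% of all peaks in the controls and 59.6% and 29.4% in CpG 1 and CpG 2. The share of 3' UTR peaks was thus lower than that of all peaks in control 1, control 2 and CpG 2 and higher in CpG 1. A peak of the other condition overlapped 39.5% and 38.4% of the control members, and 70.5% of the members in each CpG library. For all peaks these shares were 51.8% and 49.6% in the controls and 63.7% and 77.0% after CpG, where the lists compared with were the longer ones. Overlap with any other library was lower than for exon peaks in control 1, control 2 and CpG 2 and higher in CpG 1, with a mean difference of -2.70 ± 7.18 points (SD, n = 4; two-sided exact sign-flip permutation test, p = 0.625). Of the overlapping peaks, 83.4% to 89.0% were 3' UTR peaks too.

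Merging the peaks of all 4 libraries gave 55621 regions, of which 828 held a 3' UTR peak. Most of these 828 were called in 1 library (488, or 58.9%), beside 55.9% of all regions. Another 150 (18.1%) were called in 2 libraries and 115 (13.9%) in 3, beside 18.7% and 15.3% of all regions, and 75 in 4. Regions called in both control and neither CpG library, here control-only, numbered 78 (9.42%), beside 8.70% of all regions. CpG-only regions numbered 10 (1.21%), beside 1.15% of all regions. Regions called in all 4 libraries were 9.06% of the 828, beside 10.1% of all regions. Each of these shares lay near its background. The counts depended on single libraries. With lists of equal length, the strongest 13553 peaks of each library, 27 regions were control-only, 6 CpG-only and 47 in all 4 libraries. Leaving out a library moved the CpG-only count to 17 without control 1, 19 without control 2, 89 without CpG 1 and 36 without CpG 2. The control-only count moved to 313 without control 1, 227 without control 2 and 167 without CpG 2, and regions in all remaining libraries numbered 167 without CpG 1.

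**Figure D4:**
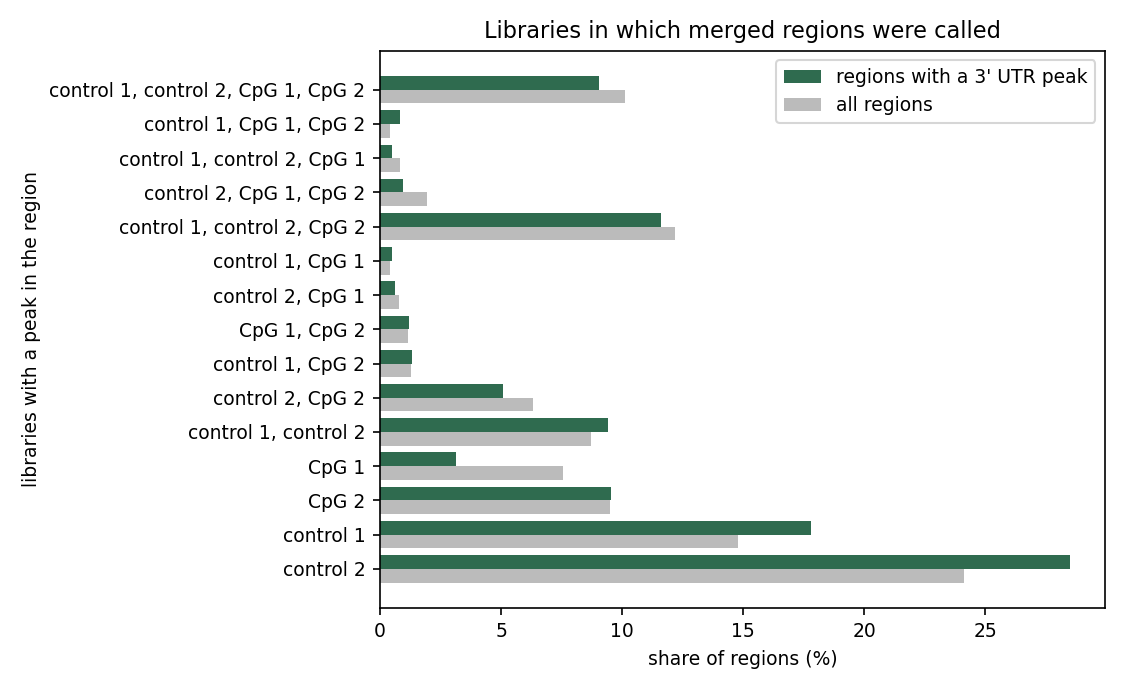
Bars give the percentage of regions (x axis) called in each combination of libraries (y axis), for the 828 regions with a 3' UTR peak (green) and all 55621 regions (grey). The green and grey bars are close for most combinations, with control 2 alone the most common in both and CpG 1 alone less common among 3' UTR regions at 3.14% against 7.54%.

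The authors' own lists of whole conditions gave the same order. The list of the control condition held 360 3' UTR peaks among 28465 (1.26%) and that of the CpG condition 152 among 15249 (0.997%). Of the 360, 244 (67.8%) had no overlap with a peak of the CpG list, beside 59.1% of all control peaks. Of the 152, 30 (19.7%) had no overlap with a control peak, beside 17.3% of all CpG peaks.

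Among the control-only regions, the highest ranked by the weaker of their 2 percentiles lay in Atp6v1e1, a subunit of the vacuolar proton pump that acidifies lysosomes (chr6:120772361-120772978). Its fold enrichment was 10.1 in control 1, as a 3' UTR peak, and 11.3 in control 2, where the summit fell in an exon. Orai3, a store-operated calcium channel subunit (chr7:127373227-127373745), had 3' UTR peaks of 8.73 and 9.07. Pygb, a glycogen phosphorylase (chr2:150672987-150673556), had 7.78 and 8.59, and Sufu, a suppressor of Hedgehog signalling (chr19:46476546-46477287), had 7.43 and 8.37. The percentiles of these 4 regions ran from 76.0 to 92.1 in their lists. A neighbouring region of the Sufu UTR (chr19:46475081-46475644) was called in CpG 2 too, at 3.52, and in the controls at 5.44 and 17.8. Its percentiles were 3.52 in CpG 2 and 42.5 and 96.2 in the controls, so the CpG 2 call was among the weakest of its list. The other control-only regions named by the rule lay in Gm50388, AW549877, Tmem140 and a gene whose ID has no name in the files.

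By the weaker of the 2 percentiles, the 78 control-only regions had a median of 36.5 (0.458 to 88.5) and the 10 CpG-only regions one of 46.2 (8.80 to 69.1). Of the CpG-only regions, Med28, a subunit of the Mediator complex (chr5:45683742-45683949), had fold enrichments of 7.0 in CpG 1 and 6.65 in CpG 2, at percentiles of 85.8 and 59.4. Limd1, a LIM domain scaffold protein (chr9:123348230-123348620), had 4.67 and 5.61. Zeb2, a zinc finger transcription factor that is expressed in macrophages (chr2:44875495-44875832), had 4.32 and 5.30, at percentiles of 27.7 and 33.3. Its UTR was not free of control signal, because control 2 had a separate Zeb2 peak of 7.45 at chr2:44878458-44878650. Prkar2b, a regulatory subunit of protein kinase A (chr12:32008233-32008602), had 5.62 in CpG 1, whereas the overlapping peak of CpG 2 was classed as intergenic. Another 4 of the 8 ranked regions lay in genes whose IDs have no name in the files.

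By gene, 722 genes had a 3' UTR peak in at least 1 library, 605 of them named. The 595 that were named and protein-coding were 5.25% of all named protein-coding genes. By library the shares were 2.54% and 3.37% in the controls and 0.820% and 1.97% after CpG. Most genes had the peak in 1 library (443), with 139 in 2, 98 in 3 and 42 in all 4. Another 70 genes had it in every library except CpG 1, and without that library the genes found in all the remaining ones numbered 112. The same counts by gene for other peak classes are not given here, so they are not read as a trait of 3' UTR peaks.

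Rgs1, which shuts off G protein signalling and so limits responses to chemokines, had the most evenly strong 3' UTR peaks of the 42 genes. Its fold enrichments were 12.4 and 16.8 in the controls and 11.2 and 14.2 after CpG, at or above the 94.0th percentile of every list. Its control 1 peak (chr1:144118282-144120966) was 2685 bp long in a gene of 6947 bp. Lyz2, which encodes the lysozyme of macrophages, came second with 10.1 and 13.4 in the controls and 7.90 and 24.1 after CpG. These are its strongest 3' UTR peaks by library, and those of the controls lay at another place than those after CpG. The place called in all 4 libraries (chr10:117113679-117114216) had 9.04, 12.5, 7.90 and 24.1, with a lowest percentile of 88.2. The strongest peaks were all at or above the 91.5th percentile, and Lyz2 had no promoter peak in any library. Aak1, a kinase of clathrin-mediated endocytosis, had 9.87, 11.9, 13.7 and 20.5, at or above the 90th percentile.

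Further genes of this group were Lpxn, encoding the adhesion adaptor leupaxin, at 7.53, 9.82, 6.50 and 15.1 in the order control 1, control 2, CpG 1 and CpG 2. Slc25a12, a mitochondrial aspartate and glutamate carrier, had 8.06, 8.27, 9.93 and 15.1. Atf6, a sensor of stress in the endoplasmic reticulum, had 13.7, 14.5, 5.67 and 14.9, with CpG 1 the lowest at the 67.4th percentile. H1f3, a linker histone gene in a histone cluster, had 20.8, 25.2, 5.61 and 9.99. Pirb, an inhibitory receptor of myeloid cells, had 6.25, 10, 6.11 and 19. The olfactory receptor gene Olfr433 had 9.05, 10.9, 6.48 and 10.1. The rule also named 3 genes without a name in the files.

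Several of the remaining 42 encode immune receptors or effectors, named here after their values were seen. Tnfrsf1b, the second receptor of tumour necrosis factor, had 5.93, 10.1, 5.86 and 6.36. Mpeg1, which encodes the pore-forming protein perforin-2 of macrophages, had 10.5, 6.76, 5.32 and 16. Havcr2, which encodes the checkpoint receptor Tim-3, had 6.68, 14.0, 4.79 and 11.2, and Tnfrsf8, which encodes CD30, had 12.3, 21.7, 5.00 and 6.98. Havcr2 had a promoter peak in all 4 libraries, whereas Tnfrsf8 and Mpeg1 had none. Of the 42 genes, 4 had a promoter peak in every library and 16 in none. The same counts over all named protein-coding genes are not given here. As only 14.1% of those had a promoter peak in CpG 1, nothing is read from the 4 and the 16. Fndc7 held the strongest 3' UTR peak of control 2, at 49.2, and had 25.4 in control 1, 4.78 in CpG 1 and 21.0 in CpG 2.

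**Figure D5:**
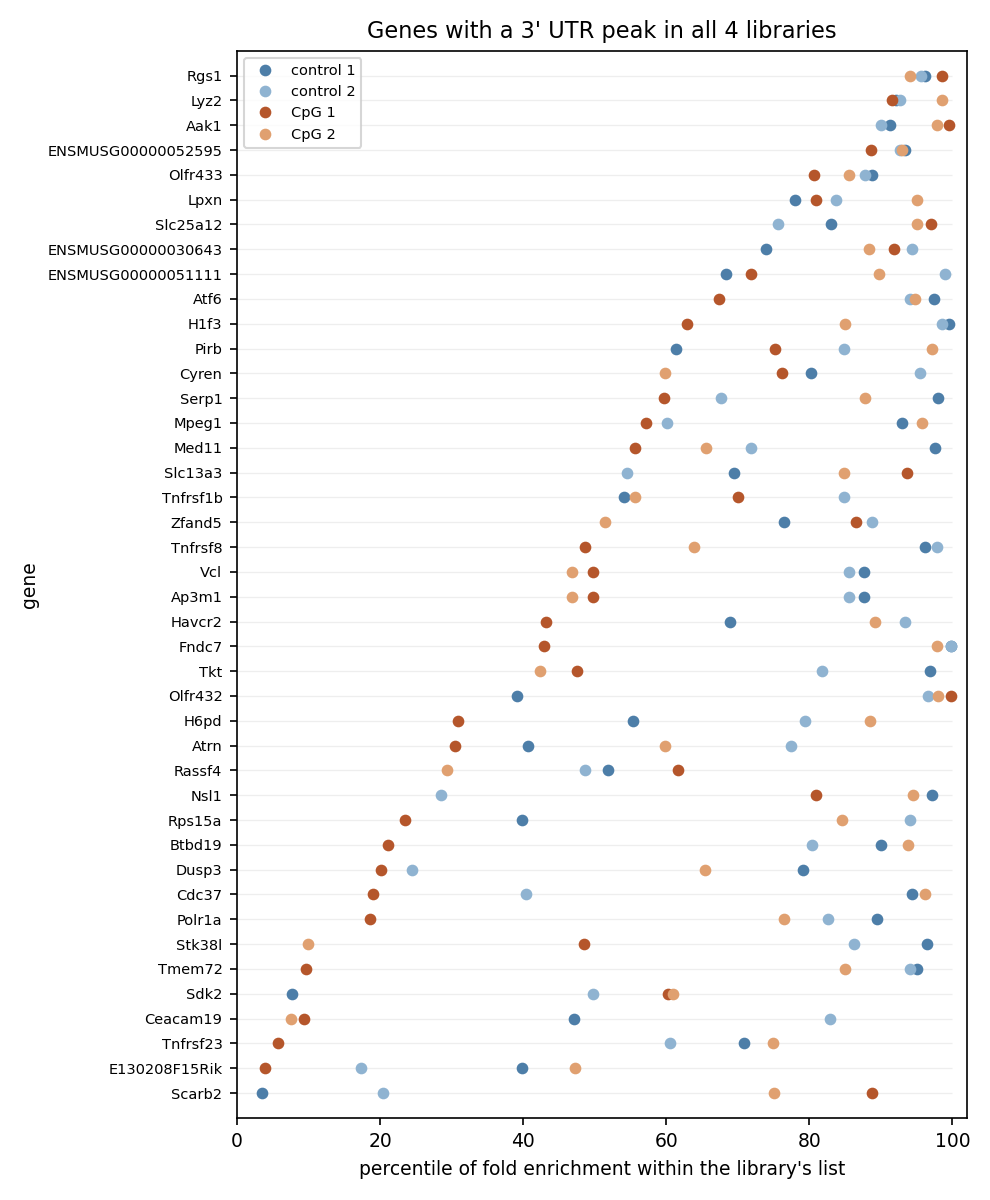
Points give the percentile of the strongest 3' UTR peak within each library's list (x axis) for the 42 genes with such a peak in all 4 libraries (y axis), ordered by their lowest percentile. Rgs1, Lyz2 and Aak1 stay at or above the 90th percentile throughout, and for many other genes CpG 1 is the lowest point.

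The list of transcripts known as targets of AU-rich decay had 9 of its 33 named genes with a 3' UTR peak in some library (27.3%), beside 5.25% of all named protein-coding genes. Such a peak was found for 8 of the 33 in control 1 and 5 in control 2, against 2 in CpG 1 and 0 in CpG 2. The shares over all named protein-coding genes were 2.54% and 3.37% in the controls and 0.820% and 1.97% after CpG. The promoter counts of the same list ran otherwise, at 17 and 26 in the controls and 22 and 25 after CpG, beside 33.1%, 38.8%, 14.1% and 30.5% of all named protein-coding genes. The class of the summit sets part of the 3' UTR counts, because a peak of another class lay over the same place in some libraries. With a peak of any class over the place counted, the 9 genes were covered in 9 and 7 cases in the controls and in 3 and 4 after CpG. These places were chosen by a 3' UTR peak in some library, and control 1 supplied 8 of the 9 genes. High coverage in the controls is therefore partly fixed by the choice, and no such share over all 3' UTR places is given here. The list was chosen with earlier results of these data known and these counts have no test.

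Mcl1, Tnfaip3, Il1a and Nfkbiz of this list carried a 3' UTR peak in both control libraries and no 3' UTR peak after CpG. Mcl1, which protects cells from apoptosis, had fold enrichments of 12.6 and 6.84 (chr3:95568951-95570501), and it had a promoter peak in all 4 libraries. Tnfaip3, whose protein A20 restrains NF-kB signalling, had 8.75 and 5.55 (chr10:18877714-18878388). Il1a, the gene of interleukin-1 alpha, had 4.52 and 4.96 (chr2:129142350-129142658), and both CpG libraries, but no control library, had its promoter peak. Nfkbiz, a nuclear partner of NF-kB, had 10.6 and 10.4 (chr16:55632335-55633594), and in CpG 2 a peak of the exon class at 5.30 overlapped that place.

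Tnf, which encodes tumour necrosis factor, had a 3' UTR peak in control 1 at 5.82, and in each other library a peak with its summit in the promoter or an exon covered that place. That of CpG 2 was 1456 bp long at 14.4, and that of control 2 was 2979 bp long at 4.81. Dusp1, a phosphatase that shuts off MAP kinases, had a 3' UTR peak in CpG 1 at 6.50. In the other 3 libraries a peak of 7996 to 8676 bp with its summit in an exon or intron ran over the same place, with fold enrichments of 16.8, 12.9 and 29.4. For both genes, then, the libraries differed in the class of the peak and all 4 had signal there.

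Among cytokine, chemokine and receptor genes 7 of 37 had a 3' UTR peak in some library (18.9%, beside 5.25% of all named protein-coding genes), with 5 in each control library and 3 in each CpG library. Of these 7, Tnf, Il1a and Cxcl2 are also on the AU-rich list, so the 2 shares are not separate observations. Cxcl2, a chemokine that attracts neutrophils, had 3.25 and 4.19 in the controls and 7.0 in CpG 1, and in CpG 2 a promoter peak of 6275 bp covered the place. Osm, which encodes oncostatin M, had 3.45 and 6.01 in the controls and 9.40 in CpG 2. Lif, a related cytokine, had 3' UTR peaks in the CpG libraries at 5.47 and 4.50 and no peak of any class over them in either control library. The 2 Lif peaks did not overlap, lying at chr11:4220577-4220733 and chr11:4221005-4221154, so neither was seen in a second library.

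The immediate early genes, which respond to a stimulus without new protein synthesis, had a 3' UTR peak in 7 of 25 cases (28.0%, beside the same 5.25%). Btg2 and Dusp1 among these 7 are also on the AU-rich list. The counts were 2 and 4 in the controls and 2 and 3 after CpG. With a peak of any class over the place they were 5 and 6 in the controls and 2 and 4 after CpG. These places too were chosen by a 3' UTR peak in some library, so their coverage depends on which library supplied them. Klf6, a zinc finger transcription factor, had 3' UTR peaks of 7.81 in CpG 1 and 11.2 in CpG 2 and none in the controls. In control 1, however, a peak of 12477 bp and fold enrichment 37.2 ran over the whole gene of 8913 bp with its summit in the 5' UTR, and in control 2 a promoter peak of 8761 bp covered at least 1 of the UTR places. Fosb, a subunit of the AP-1 factor, had 4.24 and 7.82 in the controls and 3.98 in CpG 2.

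In the lists of signalling and interferon genes the shares lay on both sides of the 5.25% of all named protein-coding genes. Of 26 NF-kB subunits and targets 3 (11.5%) had a 3' UTR peak, and Nfkbiz and Tnfaip3 of these are also on the AU-rich list. None of the 3 had one after CpG, where 0.820% (CpG 1) and 1.97% (CpG 2) of all named protein-coding genes did. A list of 26 holds few at such shares, so nothing is read from that lack. Of 30 TLR9 and MyD88 pathway genes 2 (6.67%) had one, namely Myd88 itself in control 2 at 6.99 and Dusp1. None of the 8 named IRF family genes and 1 of 37 interferon-stimulated genes (2.70%), Rsad2 in control 2 at 5.96, had one. Irf5 had promoter peaks in control 1, control 2 and CpG 2 and no 3' UTR peak. The same lack of a 3' UTR peak held for Il6, Il1b, Il10, Il12b, Zfp36, Nfkbia, Tlr9, Ccl3, Ptgs2, Marcks, Actb and Malat1, which had been chosen as genes to report in any case.

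Of the 32 macrophage identity genes 5 had a 3' UTR peak (15.6%, beside 5.25%), with 4, 3, 1 and 3 in control 1, control 2, CpG 1 and CpG 2. Beside Lyz2, Ctsb, which encodes the lysosomal protease cathepsin B, had 6.38 and 5.41 in the controls and 4.50 in CpG 2. In the list of lysosome and phagocytosis genes, Npc2, which moves cholesterol out of lysosomes, had 5.57 in control 1 and 5.10 in control 2. The 2 peaks did not overlap, and neither place had a peak in another library. In the remaining lists with a member in 3 or 4 libraries, Vcl, which encodes the adhesion protein vinculin, had 8.91, 10.3, 5.09 and 5.89. That peak also lies in the 3' UTR of Ap3m1, an adaptor subunit of vesicle transport, because the 2 genes run towards each other and overlap at their ends. Ago1, an Argonaute protein of microRNA silencing, had 5.73 in control 2, 2.78 in CpG 1 and 8.56 in CpG 2.

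No 3' UTR peak was found in any library for the 31 named ribosomal protein genes of the list, the 26 housekeeping genes or the 18 glycolysis genes. With 5.25% of all named protein-coding genes having one, lists of this size hold few, so nothing is read from these counts. Rps15a, a ribosomal protein gene that is not on that list, was among the 42 genes, at 5.29, 14.7, 4.25 and 9.85. Markers of other cell types were not all at 0. Cd3d, a subunit of the T cell receptor complex, had 3' UTR peaks of 5.35, 8.15 and 6.04 in control 1, control 2 and CpG 2 with no promoter peak, and Cd5 had one in control 1. Kdr, the endothelial receptor of vascular growth factor, had 6.28 and 8.11 in the controls and none after CpG. The erythroid and megakaryocyte list had Ppbp, in control 2. Of the named T and NK cell markers 2 of 8 thus had a 3' UTR peak. For the erythroid and megakaryocyte list and for the stromal and endothelial list it was 1 of 5 each. Each of these shares of named genes lay above the 15.6% of the macrophage identity list, but on few genes. The files name a gene only where it is nearest to a peak. The full lists held 16, 14 and 14 genes, against 34 in the macrophage list, of which 32 were named. The ranking of these shares therefore depends on which genes were named, and nothing is read from it. The 9 dendritic cell, 4 B cell and 11 neutrophil markers with a name had none. Among named genes, a share above 5.25% was thus not particular to the macrophage list, and these lists were not tested against each other.

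Some UTRs held several separate peaks. Of the 722 genes 100 had at least 2 separate places with a 3' UTR peak and 16 had at least 3. Rassf4, a member of the Ras association domain family, and Zfand5, a zinc finger protein that activates the proteasome, had 6 each, of which no library called more than 4. The next were Unc13a, which primes synaptic vesicles, with 5, and Btg1, an antiproliferative factor, and Diras2, a small GTPase, with 4 each. Diras2 was strong in 3 libraries, at 10.7, 19.1 and 11.7 in control 1, control 2 and CpG 2, and had no 3' UTR peak in CpG 1. The value of 11.7 lay at another place than the control values, where CpG 2 had 9.90.

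The longest 3' UTR peaks of shared regions exceeded 2 kb. That of H1f3 in control 1 was 3144 bp (chr13:23738188-23741331). That of Ctc1, a telomere maintenance factor, in CpG 2 was 2818 bp (chr11:68926685-68929502), and that of Fndc7 in control 2 was 2697 bp (chr3:108761886-108764582). H1f2, another linker histone gene, had 2485 bp in control 1, longer than the gene itself at 1560 bp. Regions called in all 4 libraries had a median length of 1249 bp once merged, against 198 bp for regions called in 1 library. A merged region spans all of its overlapping peaks, so more peaks make it longer by construction. Of the 75 regions called in all 4 libraries, 14 also held a promoter peak. In 39 of the 75 the summit was in the 3' UTR in every library.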

How the data were processed

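Anti-IRF5 CUT&Tag peak lists of 4 libraries (2 control, 2 CpG) and the authors' 2 lists of whole conditions were used. Per the submitters' processing notes the tools were ChIPseeker, MACS2 2.1.0, BWA 0.7.12 and fastp 0.20.0; no source used here names the genome build. The authors deposited for each peak a pileup signal at the summit, a fold enrichment (a ratio to local background), and the −log10 of its p-value and q-value. Some column headers were damaged, and those columns were read from their order and values. Depth is unknown, so no interval is given, and 2 libraries per condition limit the precision.

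Lines continuing an overlong annotation were passed over (875 and 1017 for the controls, 281 and 682 for CpG), as were peaks on other contigs (15, 17, 13 and 16). Peaks were merged into regions at an overlap of 1 bp. Names come from the files, which name a gene only where it is nearest to a peak; protein-coding genes were matched by symbol to the RefSeq table of GRCm38.p6. Conditions were compared by exact permutation of the libraries and peak classes by exact sign-flip permutation within libraries, in Python 3.11.15, after the code was tested on simulated data.

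Named are the 12 genes called in all 4 libraries with the highest lowest percentile, the 8 control-only and 8 CpG-only regions ranked by their lower percentile, list members called in 3 or 4 libraries or in a group-only region, the 5 genes with the most separate places, the 5 longest peaks of shared regions, and 18 genes whatever they showed. Other genes were named after their values were seen. The members, the 23 lists and the tests were chosen with earlier results of these data known, and the promoter measure was added after the data were seen.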

Additional observations from a re-analysis of the deposited data

How the results depend on the processing

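The direction of the number and of the share of 3' UTR peaks held under all 10 alternatives tried for each. Leaving out each library in turn gave ratios of 0.276 to 0.684 and share differences of -0.154 to -0.422 points. Pairing the libraries by replicate number (replicate block) gave a share difference of -0.288 points and a ratio of 0.440, each with p = 0.50 in an exact sign-flip permutation test, the smallest that 2 pairs can give; nothing in the labels says that the numbers mark a shared origin. Counts of regions and genes moved most. The 10 CpG-only regions became 6 with lists of equal length, 6 with −log10 q of at least 5, 21 when only a 3' UTR peak of the control barred a region, 30 with the lists of whole conditions, and 17 to 89 on leaving out a library (17 without control 1, 19 without control 2, 89 without CpG 1, 36 without CpG 2). The 78 control-only regions became 27 with lists of equal length, 244 with the lists of whole conditions, and 82 to 313 on leaving out a library (167 without CpG 2). The 75 regions in all 4 libraries became 47 with lists of equal length, 49 with −log10 q of at least 5, and 72 to 167 on leaving out a library, the highest without CpG 1. The 42 genes in all 4 libraries became 25 with lists of equal length and 50 to 112 on leaving out a library. Leaving out a library relaxes the rule by construction. The percentile difference from exon peaks turned to -2.32 against intron peaks and -2.50 against all non-promoter peaks, as the exon peaks ranked lowest of these classes in fold enrichment; the cause was not tested. On leaving out a library it was 2.16 to 4.22, the length difference -16.2 to -9.83 bp, the overlap difference -6.89 to -0.546 points and the promoter difference 6.96 to 8.81 points. Overlap with the partner library gives no value with a library left out.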

Other observations

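The 3' UTR peaks were spread unevenly over the chromosomes. Over the 4 libraries they were 2.23% of the peaks on chromosome 19, 1.72% on chromosome 7 and 1.69% on chromosome 11, and 8 of 1569 peaks (0.510%) on chromosome X, with 0 of 54 on chromosome Y. The genes with a 3' UTR peak had a median length of 18591 bp, beside 22008 bp for all named protein-coding genes, and 75 of 595 were under 5 kb long.

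Olfactory receptor genes, looked at after Olfr433 had been seen among the strongest, had a 3' UTR peak in 4 of 54 named cases (7.41%), beside 5.25% of all named protein-coding genes. Olfr432, which lies next to Olfr433 on chromosome 1, had fold enrichments of 5.24 and 18.4 in the controls and 16 and 21.2 after CpG. Its peak in CpG 1 was the strongest of the 3' UTR peaks there. Cebpd, a transcription factor of the myeloid lineage, had 3' UTR peaks of 6.30 and 7.63 in the controls and none after CpG, and its promoter peak was called in each CpG library and in no control library, as for Il1a. Gadd45g, a stress response gene, had 3' UTR peaks of 7.58 and 6.01 in the controls and none after CpG, with a promoter peak in all 4 libraries.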
